A study of Mus musculus with 12 samples.

Results

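Mouse myotubes labelled Bmal1 knockout were compared with myotubes labelled wildtype in 6 of the 12 RNA sequencing libraries of the series, 3 of each label. These 6 libraries, replicates 4 to 6 of each label, were selected on their high levels of hypoxia-induced genes. The genotype label, and with it the virus if the series' design text holds for them, thus differs between the groups while the oxygen readout does not. Myotubes are the multinucleated muscle cells that cultured myoblasts form by fusion. All 12 libraries came from myoblasts of mice with a floxed Bmal1 gene, which the Cre recombinase can excise. Per the series' design text, the knockout cells received an adenovirus with Cre for 48 hours, the control cells received an empty adenovirus, and both were then kept at 21% or 1% oxygen for 6 hours. In the labels the wildtype libraries all carry 21% oxygen and the knockout libraries all carry 1% oxygen, so genotype label, virus and oxygen label cannot be told apart. The virus of each library is not stated. The names wildtype and knockout stand for these labels throughout. The virus is given to a culture, so cells that it does not reach keep an intact gene. No culture, animal or batch is named. A p-value sets the difference between the labels against the scatter of libraries within a label, and that scatter may be technical.

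Bmal1, listed under its older symbol Arntl, encodes the transcription factor that pairs with CLOCK or NPAS2, binds E-box sequences and switches on the genes of the circadian clock. Among its targets are its own repressors: the PER and CRY proteins, which block the BMAL1 complex, and the nuclear receptors REV-ERB alpha (Nr1d1) and REV-ERB beta (Nr1d2), which silence Arntl, Npas2, Cry1 and other genes that ROR receptors activate. In skeletal muscle this loop is known for its control of genes of fuel use and of the contractile apparatus.

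The values that chose the libraries are given as a description and were not tested. Over 36 hypoxia-induced genes the mean log2 level per library ran from 9.79 to 9.87 in these 6 libraries and from 7.97 to 8.17 in the other 6. Egln3, an oxygen-sensing hydroxylase gene that hypoxia itself induces, had normalized counts of 2218, 2258 and 2199 in wildtype replicates 4 to 6 and of 2036, 2056 and 2143 in knockout replicates 4 to 6, against 194 to 270 in the other 6 libraries. Slc2a1, the gene of the glucose transporter GLUT1, lay at 3457, 3514 and 3487 in the wildtype and at 3168, 3337 and 3554 in the knockout libraries, against 475 to 589 in the others. The oxygen labels go against these levels: the wildtype libraries here are labelled 21% oxygen yet lay as high as the knockout libraries labelled 1%, and the knockout libraries labelled 1% among the other 6 lay as low as their wildtype libraries. The groups of Slc2a1 overlapped, those of Egln3 did not, and the median log2 difference between knockout and wildtype over the 36 genes was 0.01, with a range of -0.68 to 0.29, and turned to -0.20 under quantile normalization and to -0.13 with library totals without 7 very abundant non-coding or unnamed genes.

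The 6 libraries held 6671694 to 12251712 reads. Sequencing depth went with the label: outside 7 very abundant non-coding or unnamed genes the wildtype libraries held 5519535 to 5895045 reads and the knockout libraries 2333987 to 4794236. The share of genes at 0 was at most 13.1% in the wildtype and 16.9% to 21.9% in the knockout libraries. The myotube genes Acta1, Des, Mylpf, Myh3 and Ttn each lay above 1500 normalized counts in every library. Summed over 12 myotube markers the level was 20514 to 24309 in the wildtype and 35302 to 37151 in the knockout libraries, with 7 higher and 0 lower, and 3 lower under quantile normalization or with totals without the abundant genes. Satellite cell and myoblast markers summed to 1519 to 1565 and 1387 to 1475, with 1 of 8 tested higher and 2 lower. Endothelial markers were present as well, with all 12 of 12 measured above the minimum and a summed level of 1583 to 1724 normalized counts in the wildtype and 2209 to 2352 in the knockout libraries. Of these, Cdh5, Flt1, Kdr and Pecam1 rose by 0.67, 0.49, 0.44 and 0.37 on the log2 scale. This count of 4 was 2 without wildtype replicate 4 and with totals without the abundant genes. Pericyte and smooth muscle markers summed to 9098 to 10243 and 10969 to 11634, with 3 of 10 higher, and fibroblast markers to 90660 to 100693 and 106997 to 114607, with 4 of 11 higher and 1 lower. The fibroblast count of 4 was 0 to 2 without wildtype replicate 4 or 6 or any 1 knockout library. It was 0 with totals without the abundant genes, and 1 under quantile normalization, with all 12 libraries in 1 fit and with all libraries thinned to one depth. It was 2 with no filter, in edgeR, in DESeq2 and after removal of length and GC trends. Macrophage markers summed to 57.3 to 74.5 and 78.0 to 111.6, with Ptprc, Adgre1 and Tyrobp each at no more than 2.12 in any library. Of the same list, Lyz2 lay at 22.84 to 24.84 and 33.15 to 36.24, and Cd68 at 7.78 to 19.98 and 15.6 to 46.73. Adipocyte markers summed to 222.8 to 242.7 and 237.9 to 270.8. Among them Adipoq lay below 1, while Fabp4 lay at 210.1 to 224.8 and 224.2 to 258.4. Schwann cell markers summed to 341 to 372 and 422 to 491 with 1 of 4 tested higher, and 0 of 2 macrophage and 0 of 2 adipocyte markers tested passed. Over all genes tested, 22.6% differed between the labels at the threshold given below, 12.5% higher and 10.1% lower. The counts of the pericyte and Schwann cell lists are small and near 22.6%, and nothing is read from them.

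Of 12539 genes with a mean of 10 or more normalized counts over the 6 libraries, 2837 (22.6%) differed between the labels in limma with a Benjamini-Hochberg adjusted p under 0.05, 1567 of them higher in the knockout libraries (12.5%) and 1270 lower (10.1%). The falls were the larger changes: 345 genes fell at least 2-fold and 122 rose at least 2-fold. With a minimum mean of 50 instead of 10, 1560 genes were higher and 1038 lower, so mostly falls were lost. Genes of low level thus held more of the falls, and the knockout libraries were the shallower ones. The part of depth in this asymmetry was not tested. In 5054 genes (40.3%) the 3 knockout values lay wholly above or wholly below the 3 wildtype values, 2644 above and 2410 below. The median log2 fold change over all genes tested was 0.0019. In bulk RNA, fewer cells of a type and less RNA per cell cannot be told apart, which holds for every level given here. Leaving out wildtype replicate 4 lowered the number of falls to 684, wildtype replicate 5 to 832 and wildtype replicate 6 to 843. After thinning all 6 libraries to 2333987 reads outside the abundant genes, 1197 genes were higher and 969 lower. When the libraries were scaled to their totals without the abundant genes, the median of all genes moved to -0.14 and the split of calls turned from 55.2% higher to 26.8% higher, with 831 genes higher and 2274 lower. Requiring a change beyond 1.5-fold left 41 genes higher and 87 lower.

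The targeted gene followed its label. Arntl (ENSMUSG00000055116, chr7:113207465-113314126, plus strand, GRCm38) had 179, 178 and 155 normalized counts in the wildtype replicates 4 to 6 while the knockout libraries had 42.9, 47.3 and 48.6. There was no overlap, and the fall was 3.63-fold, a log2 fold change of -1.86 (SE 0.13, adjusted p = 4.3e-05). A two-sided exact permutation test over the 20 relabellings gave p = 0.1, the smallest that 3 against 3 can give. With each library left out in turn the change ran from -1.93 to -1.81.

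The REV-ERB genes had among the largest falls of the whole table. Nr1d1 (chr11:98767932-98775333, minus strand) lay at 95.7, 79.2 and 106 in the wildtype and at 3.90, 3.38 and 13.4 in the knockout libraries. Every knockout value was far below every wildtype value, and knockout replicates 4 and 5 rested on 2 and 3 reads, so the log2 fold change of -3.80 (SE 0.42, adjusted p = 0.000409, 13.9-fold) is of limited precision. Nr1d2 (chr14:18204054-18239127, minus strand) lay at 221, 231 and 190 in the wildtype and at 21.4, 16.9 and 24.8 in the knockout libraries, a log2 fold change of -3.30 (SE 0.18, adjusted p = 1.03e-05). The library with the highest Nr1d2 in the knockout was still more than 7 times below the lowest wildtype library.

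Of the other activators, Npas2, which can stand in for CLOCK, rose from 40.2, 33.3 and 47.1 to 103, 90.1 and 112, a log2 fold change of 1.33 (SE 0.18, adjusted p = 0.000994). Clock itself lay at 252, 250 and 260 against 216, 244 and 248 and did not pass (log2 fold change -0.11, adjusted p = 0.429). Arntl2, the BMAL1 paralog, had overlapping groups (-0.68, adjusted p = 0.168), and the ROR gene Rora, a member of the hypoxia list and hence untested, lay at 572 to 727 against 657 to 730. Of the 4 activators tested 1 rose and 1 fell, with a median of -0.39.

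The repressors did not move as 1 block. Cry1 doubled, from 88.4, 75.7 and 95.6 to 179, 177 and 188, a log2 fold change of 1.06 (SE 0.12, adjusted p = 0.000476), and Per2 rose from 46.8, 53.8 and 68.5 to 109, 121 and 108 (1.00, SE 0.17, adjusted p = 0.00272, and 0.0732 with all 12 libraries in 1 fit). Per3 went the other way, from 27.0, 22.6 and 19.3 to 9.75, 7.89 and 8.58 (-1.29, SE 0.30, adjusted p = 0.0134). None of these 3 genes had overlapping groups, and the call of Per3 was lost without wildtype replicate 4 (adjusted p = 0.071) or 5 (adjusted p = 0.0501). The call of Per3 was also lost in DESeq2 (adjusted p = 0.053). Per1 overlapped between the labels at 206, 221 and 345 against 193, 151 and 251 (-0.37, adjusted p = 0.26). Ciart, a further repressor of the BMAL1 complex, lay at 122 to 124 against 125 to 165 (0.16, adjusted p = 0.413), and Bhlhe40 and Bhlhe41 did not pass either (-0.19 and -0.15), although Bhlhe40 did under quantile normalization (-0.35, adjusted p = 0.0104), with totals without the abundant genes (-0.34, adjusted p = 0.0103) and without knockout replicate 6 (-0.27, adjusted p = 0.0353). The call of Cry2 (0.28, adjusted p = 0.0362) was lost in 12 alternatives, which include leaving out any 1 library. In all, 3 of 10 repressors rose, 3 fell and 4 did not pass, with a list median of -0.17.

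Among 12 output genes tested, 0 rose and 3 fell, near the 22.6% called over all genes, with a median of -0.16. Dbp, the D-box activator usually taken as the direct readout of BMAL1, fell from 53.3, 34.7 and 51.4 to 27.3, 15.8 and 26.7 (-0.98, SE 0.28, adjusted p = 0.0328), but not past the threshold without wildtype replicate 4, wildtype replicate 6 or knockout replicate 5. Dbp also missed it with no filter (adjusted p = 0.0567), under quantile normalization (0.0653), with all 12 libraries in 1 fit (0.0552) and after thinning (0.0679). Nfil3, the repressor that competes with it for D-boxes, fell from 457, 426 and 448 to 310, 326 and 318 (-0.48, SE 0.07, adjusted p = 0.00168). Gpcpd1 fell as well (-0.86, adjusted p = 0.03), a call lost without wildtype replicate 4 or 6 or knockout replicate 4 or 6. That call was also lost under quantile normalization, with all 12 libraries in 1 fit, after thinning and after removal of length and GC trends. Klf15 and Klf9 lay lower without overlap but did not pass (-1.10 with adjusted p = 0.0646, and -0.35 with adjusted p = 0.0726). Both passed with totals without the abundant genes (adjusted p = 0.0419 for Klf15 and 0.0226 for Klf9), and Klf15 also without knockout replicate 6 (adjusted p = 0.0499). The levels of Tef, Wee1, Nampt, Usp2, Por and Tspan4 overlapped between the labels. With scaling to totals without the abundant genes, 7 of the 12 output genes fell instead of 3, and after thinning 1 fell.

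**Figure D1:**
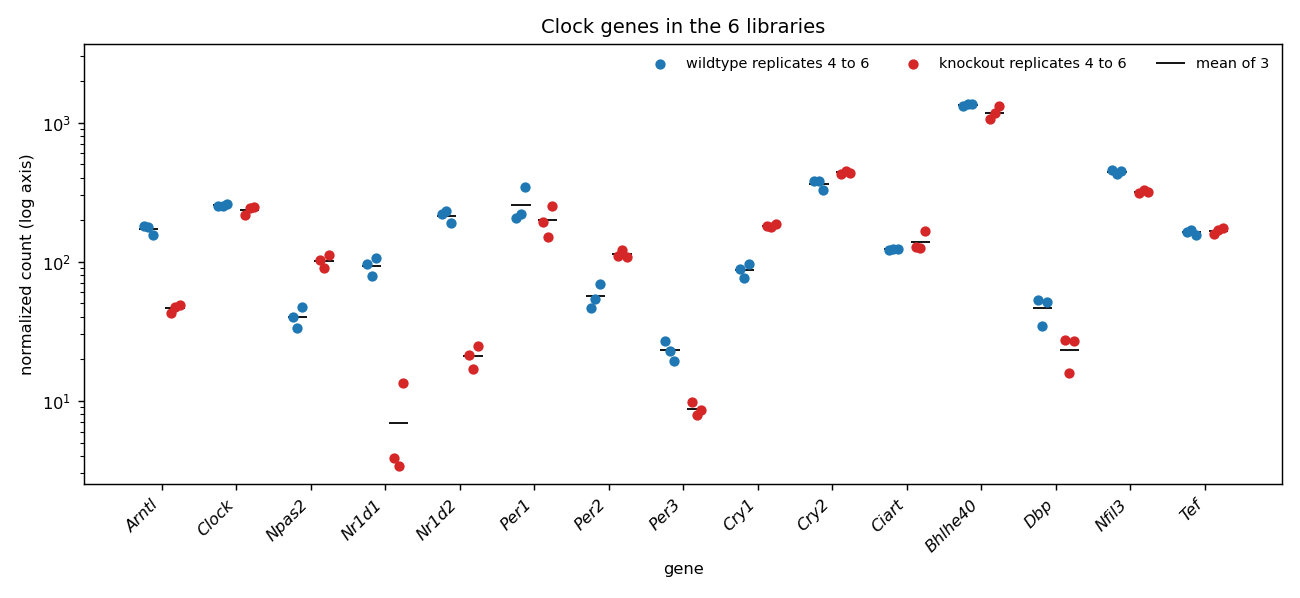
Normalized counts on a log axis for 15 clock genes in the 6 libraries. Blue points are wildtype replicates 4 to 6, red points are knockout replicates 4 to 6, and a bar marks the mean of 3. Of the genes that passed the test, Arntl, Nr1d1, Nr1d2, Per3, Dbp and Nfil3 sit lower in the knockout libraries, and Npas2, Per2, Cry1 and Cry2 sit higher. Clock and Bhlhe40 sit lower and Ciart sits higher without overlap, but they did not pass.

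Clock genes respond to few short promoter elements, and their promoters are shown because the genes above moved in different directions. The 250 bases upstream of the RefSeq start (GRCm38.p6) were searched on both strands for the E-box CACGTG, the E-box-like CACGTT and the D-box TTATGTAA, none of which overlap here. Bases that GENCODE M21 places in an exon are left out below. Matches stand in capitals, and CACGTT on the other strand reads AACGTG. The lines give, 5' to 3' along the minus strand, Ciart (chr3:95882252-95882478), Per3 (chr4:151044666-151044915), Cry1 (chr10:85185065-85185304) and Nr1d1 (chr11:98775378-98775627).
Ciart: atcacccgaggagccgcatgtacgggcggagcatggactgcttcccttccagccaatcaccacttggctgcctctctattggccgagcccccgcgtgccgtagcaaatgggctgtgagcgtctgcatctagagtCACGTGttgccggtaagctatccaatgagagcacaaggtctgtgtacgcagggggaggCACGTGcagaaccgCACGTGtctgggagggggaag
Per3: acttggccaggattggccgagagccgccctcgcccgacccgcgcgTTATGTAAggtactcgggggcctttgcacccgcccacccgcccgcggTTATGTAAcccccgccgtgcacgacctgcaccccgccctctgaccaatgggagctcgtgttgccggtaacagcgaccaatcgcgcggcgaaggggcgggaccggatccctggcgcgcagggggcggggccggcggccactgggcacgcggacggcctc
Cry1: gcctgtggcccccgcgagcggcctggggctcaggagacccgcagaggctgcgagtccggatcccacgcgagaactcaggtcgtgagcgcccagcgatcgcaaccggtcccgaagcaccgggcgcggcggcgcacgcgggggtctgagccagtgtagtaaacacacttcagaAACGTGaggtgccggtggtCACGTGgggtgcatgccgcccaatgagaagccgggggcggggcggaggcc
Nr1d1: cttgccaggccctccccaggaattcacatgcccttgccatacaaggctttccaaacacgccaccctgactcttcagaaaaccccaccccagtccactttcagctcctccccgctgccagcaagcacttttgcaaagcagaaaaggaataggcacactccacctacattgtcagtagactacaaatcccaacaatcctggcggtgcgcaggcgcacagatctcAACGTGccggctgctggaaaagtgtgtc
Ciart held 3 copies of CACGTG, Cry1 held 1 with 1 CACGTT beside it, Nr1d1 held 1 CACGTT and Per3 held 2 copies of TTATGTAA. Of the 27 clock genes 23 had a window, and 7 of these held CACGTG, against 6.02% of all 32851 windows. The clock counts are of genes with a match in any window, while the shares over all are of single windows. CACGTT was found in 3 of the 23 and in 3.85% of all windows, TTATGTAA in 1 of the 23 and in 0.819% of all. A match describes the letters in the window and not a bound site. The promoters shown were picked from those of the 23 genes with a window. Among the promoters shown, 3 had an E-box or E-box-like match. They belong to a gene that fell more than 10-fold (Nr1d1), a gene that doubled (Cry1) and a gene that did not pass the test (Ciart).

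Beyond the clock, the 12 falls that were largest at a mean level of at least 50 held muscle genes and signalling genes. Cnr1, the cannabinoid receptor CB1 (chr4:33924593-33948831, plus strand), lay at 183, 146 and 160 in the wildtype and at 9.75, 18.0 and 16.2 in the knockout libraries (-3.42, SE 0.24, adjusted p = 3.6e-05). Ppp1r3a, the muscle subunit that targets protein phosphatase 1 to glycogen (chr6:14713977-14755274, minus strand), lay at 244, 207 and 216 against 21.4, 25.9 and 25.7 (-3.14, SE 0.15, adjusted p = 6.99e-06). Gcnt1, a glycosyltransferase of branched O-glycans (chr19:17326141-17372844, minus strand), lay at 125, 104 and 116 against 9.75, 14.6 and 11.4 (-3.18, SE 0.21, adjusted p = 3.39e-05). In each of the 3 genes the lowest wildtype library was more than 7 times above the highest knockout library.

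The other falls of that group were Alpk2, an alpha-kinase of muscle, from 97.9, 94.1 and 118 to 9.75, 9.01 and 12.4 (-3.20, SE 0.22), Myot, the Z-disc protein myotilin, from 184, 136 and 153 to 21.4, 12.4 and 32.4 (-2.87, SE 0.30), and Lmod2, the actin nucleator leiomodin, from 107, 101 and 123 to 31.2, 18.0 and 21.9 (-2.21, SE 0.22). Fam13a fell from 127, 108 and 120 to 13.6, 14.6 and 19.1 (-2.84, SE 0.19). Asb5, a ubiquitin ligase adaptor of muscle, fell from 492, 412 and 385 to 83.8, 93.5 and 79.1 (-2.31, SE 0.12). All of these kept apart by library and were called in every alternative. Rgs2, a brake on G protein signalling, fell from 89.8, 87.0 and 74.9 to 17.5, 30.4 and 6.67 (-2.36, SE 0.43, adjusted p = 0.00421). Kif5c, a kinesin motor, fell to 7.80, 12.4 and 52.4 from 98.6, 80.7 and 86.4 (-2.27, SE 0.54, adjusted p = 0.0153). Knockout replicate 6 stood apart from the other 2 knockout libraries in Kif5c, and the call was lost without wildtype replicate 4 (adjusted p = 0.064). The call of Kif5c was also lost in DESeq2 (-1.85, adjusted p = 0.0759).

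The largest rises included muscle genes too. Tnnc1, the troponin C of slow and cardiac muscle (chr14:31208312-31211729, plus strand), rose from 340, 260 and 306 to 1279, 1137 and 1346 (2.05, SE 0.10, adjusted p = 9.15e-06). Casq1, the calcium store protein calsequestrin of fast muscle (chr1:172209894-172219868, minus strand), rose from 39.4, 38.9 and 41.4 to 164, 141 and 208 (2.05, SE 0.16, adjusted p = 7.67e-05). Wfs1, a membrane protein of the endoplasmic reticulum, rose from 313, 318 and 372 to 1086, 1036 and 1071 (1.67, SE 0.08, adjusted p = 6.99e-06). In all 3 the lowest knockout library lay more than 2 times above the highest wildtype library. R3hdml rose by 1.92, Apoe, the lipid carrier, by 1.56, Myl6b, a myosin light chain, by 1.55, Aif1l by 1.53, Fgfrl1, an FGF receptor without a kinase domain, by 1.48 and Hid1 by 1.45. Stab1, a scavenger receptor, lay at 29.9, 24.1 and 23.6 against 79.9, 135 and 60.1 (1.71, SE 0.28, adjusted p = 0.00258).

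Hmga1b had the highest fold change with the poorest precision. It lay at 10.2, 12.7 and 8.56 in the wildtype and at 445, 20.3 and 960 in the knockout libraries (4.20, SE 1.11, adjusted p = 0.0239), so knockout replicate 5 was close to the wildtype libraries. Hmga1b is a near-identical copy of Hmga1, and reads of such copies are divided by estimate. Hmga1 itself rose by 0.87 (SE 0.07). The call of Hmga1b was lost in 6 alternatives, which include leaving out any 1 library other than knockout replicate 5. ENSMUSG00000045999, an identifier that GENCODE M21 does not name and that is 1 of the 7 abundant genes, rose by 1.67 (SE 0.27), a call lost under quantile normalization (0.63, adjusted p = 0.32) and with all 12 libraries in 1 fit (adjusted p = 0.159).

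**Figure D2:**
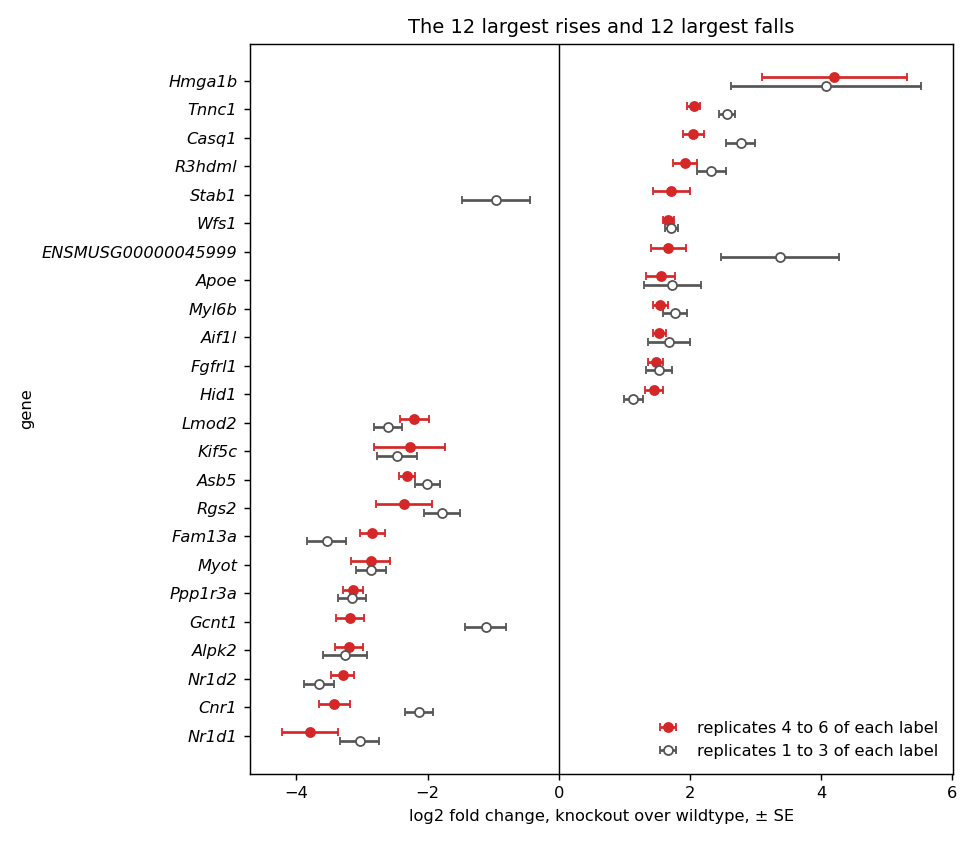
Log2 fold change of knockout over wildtype with its SE for the 12 largest rises and 12 largest falls. Filled red points are the 6 libraries compared here, open points are replicates 1 to 3 of each label, which were not used to pick the genes. All but Stab1 lie on the same side of 0 in both.

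Of 20 thin filament genes tested 12 rose and 3 fell, with a list median of 0.45 against 0.0019 over all genes. The rises included the troponins: besides Tnnc1, Tnnt3 rose by 1.33, Tnnt1 by 1.07, Tnni1 by 1.06, Tnnt2 by 0.99 and Tnnc2 by 0.93. Acta1, the skeletal muscle actin, lay at 4912, 4502 and 5067 in the wildtype and at 9719, 9280 and 10060 in the knockout libraries (1.01, SE 0.06, adjusted p = 1.33e-05). The 3 that fell were Lmod2, Lmod3 (-0.65) and Xirp2 (-1.22), which nucleate or bind the actin filament. Troponins of slow fibres (Tnnt1, Tnni1) and of fast fibres (Tnnt3, Tnnc2) were both among the rises, without overlap between the labels. With totals without the abundant genes 5 fell.

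Of the sarcomeric myosins and their partners 9 of 20 were higher, 5 lower, with a list median of 0.09, which turned to -0.0018 under quantile normalization and to -0.05 with totals without the abundant genes. The rises included light chain genes: Myl4 rose from 749, 639 and 617 to 1624, 1565 and 1598 (1.26, SE 0.08, adjusted p = 1.98e-05), Myl6b as above, and Mylpf by 1.10. Among the heavy chains, Myh1, the fast IIX heavy chain, fell from 1022, 770 and 986 to 472, 384 and 427 (-1.11, SE 0.12, adjusted p = 0.000305), while Myh4, the IIB chain, rose by 0.92. Myh7, the slow chain, rose from 8.77, 4.95 and 16.4 to 44.8, 21.4 and 36.2 (1.75, SE 0.44). The embryonic Myh3 and neonatal Myh8 chains did not pass (-0.06 and -0.34). The thick filament binders Mybpc1 and Mybpc2 fell by 0.85 and 0.75, and the count of falls was 3 instead of 5 without wildtype replicate 4, wildtype replicate 6 or knockout replicate 4, and after thinning.

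Of 27 Z-disc and titin scaffold genes 5 rose and 11 fell, with a median of -0.25. Des, the intermediate filament protein desmin, rose from 4175, 3469 and 4420 to 8355, 8220 and 8292 (1.05, SE 0.08, adjusted p = 6.18e-05), and Actn3, the alpha-actinin of fast fibres, from 638, 558 and 583 to 1347, 1383 and 1443 (1.23, SE 0.07, adjusted p = 1.13e-05). Against these, Tcap, the cap of titin, fell from 76.0, 64.4 and 57.8 to 17.5, 22.5 and 14.3 (-1.82), and Ankrd23 from 335, 283 and 267 to 93.6, 117 and 102 (-1.49, SE 0.13). Besides Alpk2 and Myot, the stretch-linked genes Csrp3 and Ankrd1 fell by 0.90 and 0.71 and the ubiquitin ligase Trim63 (MuRF1) by 0.95. Titin (Ttn) itself did not pass (-0.21). The count of rises was 3 instead of 5 after thinning, after removal of length and GC trends and with totals without the abundant genes.

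Calcium handling genes gave 9 rises and 8 falls among 25, with a median of -0.20. The rises included Casq1, Hrc (from 230, 188 and 251 to 536, 406 and 432; 1.03, SE 0.13), Atp2a1, the SERCA1 pump, by 0.96, Casq2 by 0.77, Cacna1s by 0.58 and Ryr1 by 0.51. Among the falls, Jph1, which ties the reticulum to the surface membrane, fell from 146, 141 and 157 to 48.7, 42.8 and 53.4 (-1.60, SE 0.14, adjusted p = 0.000121). Kcnj2, the inward rectifier that sets the resting potential, fell from 449, 400 and 422 to 162, 162 and 161 (-1.38, SE 0.08, adjusted p = 1.74e-05), and Sln, the pump inhibitor sarcolipin, fell by 1.12. The 3 knockout values of Kcnj2 lay between 161 and 162.

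**Figure D3:**
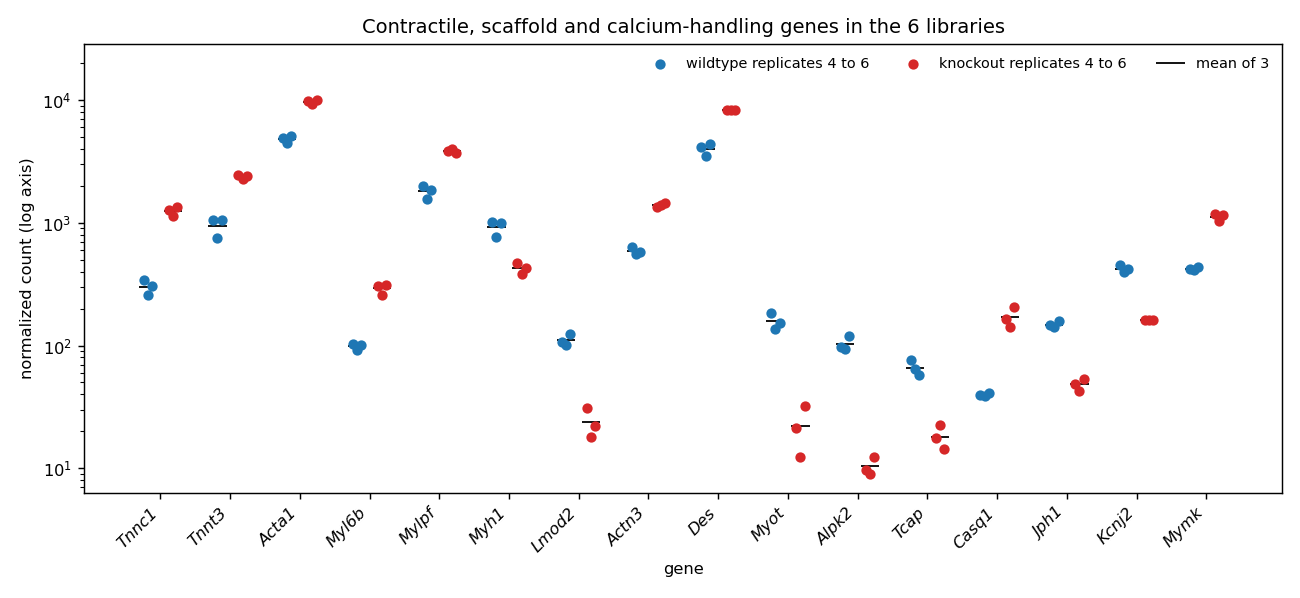
Normalized counts on a log axis for 16 contractile, scaffold, calcium-handling and fusion genes in the 6 libraries, chosen after their values were seen. Blue points are wildtype, red points knockout replicates 4 to 6, and a bar marks the mean of 3. Troponins, actin, light chains, desmin, Casq1 and Mymk are higher in the knockout libraries, and Lmod2, Myot, Alpk2, Tcap, Myh1, Jph1 and Kcnj2 are lower, with no overlap in any of the 16.

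Of 23 transcription factors and cofactors of the muscle lineage 1 rose and 9 fell, with a median of -0.34. Msc (musculin) and Myf5, both high in myoblasts before fusion, had the largest falls: Msc from 72.3, 55.2 and 55.0 to 5.85, 9.01 and 3.81 (-3.15, SE 0.32, adjusted p = 0.000278) and Myf5 from 76.7, 58.0 and 62.8 to 3.90, 13.5 and 10.5 (-2.83, SE 0.39, adjusted p = 0.00112). Six4 fell from 170, 151 and 148 to 46.8, 62.0 and 47.7 (-1.58, SE 0.15), and its cofactors Eya1 and Eya4 fell by 1.68 and 1.05. Mef2c and Myod1 fell by 0.74 and 0.62, while Myog, the factor of terminal differentiation, lay at 171, 176 and 150 against 146, 132 and 115 and did not pass (-0.34, adjusted p = 0.0818). Pax7, the satellite cell factor, overlapped between the labels (-0.60, adjusted p = 0.203). Mrtfb alone rose (0.36), a call lost in 8 alternatives, among them thinning (adjusted p = 0.063) and leaving out wildtype replicate 4 or 5 or knockout replicate 4 or 6.

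Of 17 fusion and adhesion genes 6 rose and 1 fell, with a median of 0.19. Mymk, the membrane protein myomaker without which myoblasts do not fuse, rose from 421, 412 and 438 to 1172, 1032 and 1152 (1.40, SE 0.07, adjusted p = 9.15e-06), and Kirrel, Dysf and Myof rose by 0.53, 0.45 and 0.33. Jam3 fell from 262, 250 and 266 to 119, 98.0 and 124 (-1.19, SE 0.11). With totals without the abundant genes 3 genes of this list rose instead of 6.

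Mstn, the muscle growth inhibitor myostatin, fell from 77.4, 82.8 and 108 to 15.6, 30.4 and 20.03 (-2.01, SE 0.26, adjusted p = 0.000831), and Fst, its antagonist follistatin, fell from 51.1, 70.7 and 56.4 to 25.3, 25.9 and 25.7 (-1.17, SE 0.20, adjusted p = 0.00296). Both the inhibitor and its antagonist thus lay lower without overlap. Of the 15 genes of this list 4 rose and 3 fell, and the rises were Grem1 (0.61), Smad7, Fstl3 and Fstl1, the last of which turned from 0.19 to -0.17 under quantile normalization. The number of rises was 1 or 2 without any 1 library other than wildtype replicate 5, and the list median of 0.04 turned to -0.10 with totals without the abundant genes and also below 0 under quantile normalization, after thinning and after removal of length and GC trends. Of 17 tested atrophy genes outside the hypoxia list 1 rose and 7 fell, with a median of -0.05: Fbxo32, the ubiquitin ligase atrogin-1, fell from 508, 470 and 547 to 253, 270 and 259 (-0.96, SE 0.08, adjusted p = 0.00011), and Gadd45a from 329, 282 and 266 to 166, 154 and 153 (-0.88, SE 0.10). The FOXO genes Foxo1, Foxo3 and Foxo4 did not pass (0.03, 0.17 and 0.30). Of 13 receptor and synapse genes 1 rose, the receptor subunit Chrna1 (0.45, SE 0.08), and 3 fell, the receptor tyrosine kinase Musk (-0.46), its partner Dok7 (-0.76) and Prkar1a (-0.22). The share called is near the 22.6% called over all genes, and the list median of -0.04 turned to 0.08 after thinning. The calls of Dok7 and Prkar1a were lost in 10 and 5 alternatives, among them leaving out wildtype replicate 4 or 6 or knockout replicate 6.

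In fuel metabolism 1 of 18 glycogen genes tested rose and 4 fell, near the 22.6% called over all genes, with a median of -0.04. Besides Ppp1r3a, Gyg, the glycogenin that primes each glycogen particle, fell from 462, 435 and 447 to 144, 203 and 176 (-1.37, SE 0.12, adjusted p = 0.000121), and Ugp2 and Epm2a fell by 0.47 and 0.33, while Pygm, the muscle phosphorylase, rose by 0.45 (SE 0.10, adjusted p = 0.00981). The rise of Pygm did not pass under quantile normalization (adjusted p = 0.056) or with totals without the abundant genes (adjusted p = 0.057). Of 15 glycolysis genes outside the hypoxia list 10 rose and 0 fell, with a median of 0.30. Pgam2, the muscle phosphoglycerate mutase, rose from 164, 149 and 168 to 294, 266 and 282 (0.80, SE 0.09, adjusted p = 0.000522) and Aldoa from 10264, 9716 and 9373 to 12917, 12420 and 12634 (0.37, SE 0.05, adjusted p = 0.00102). The rises in glycolysis rested in part on scaling: under quantile normalization 3 rose and 2 fell, with a median of -0.04, and Aldoa did not pass (0.02). With totals without the abundant genes 8 rose and 2 fell.

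Respiratory chain genes were higher on both genomes. Of 80 nuclear genes 53 rose and 0 fell, with a median of 0.42. Cox6b1 rose from 506, 480 and 484 to 918, 911 and 949 (0.92, SE 0.06, adjusted p = 3.2e-05) and Uqcrh from 410, 357 and 361 to 780, 702 and 738 (0.98, SE 0.08, adjusted p = 8.18e-05). Cox7b and Atp5k rose by 1.03 and 1.00, so the largest changes were about 2-fold. The summed level of the 80 genes ran from 36968 to 39960 in the wildtype and from 51168 to 52639 in the knockout libraries. Under quantile normalization 39 rose and with totals without the abundant genes 35 rose, and in both 0 fell.

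Of the 13 protein genes of the mitochondrial genome 10 rose and 0 fell, with a median of 1.02. mt-Cytb lay at 4752, 4560 and 5440 in the wildtype and at 11774, 9472 and 10698 in the knockout libraries (1.11, SE 0.09, adjusted p = 7.41e-05), and mt-Atp8 rose by 1.05 (SE 0.08). mt-Co1 rose from 48660, 45170 and 50930 to 76880, 64980 and 67770 (0.53, SE 0.07). Some of these genes scattered widely between libraries of 1 label: mt-Co3 ran from 0.714 to 1981 in the wildtype libraries and did not pass, and mt-Nd4l overlapped between the labels (1.53, SE 0.47, adjusted p = 0.0445).

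Of 27 genes of PGC-1 coactivators and fatty acid oxidation 2 rose and 6 fell, near the 22.6% called over all genes, with a median of -0.0036 that turned to 0.0074 under quantile normalization and to 0.03 after thinning. Ppargc1a, the coactivator PGC-1 alpha that drives mitochondrial biogenesis, fell from 62.8, 41.0 and 60.7 to 25.3, 6.76 and 17.2 (-1.83, SE 0.42, adjusted p = 0.0124), Ppargc1b from 38.0, 34.0 and 44.3 to 15.6, 10.1 and 11.4 (-1.58, SE 0.27, adjusted p = 0.00287) and their partner Esrrg from 27.8, 25.5 and 27.1 to 9.75, 9.01 and 5.72 (-1.63, SE 0.31, adjusted p = 0.0052). Perm1, Pdk4 and Tfam fell as well, with log2 fold changes of -1.25, -1.08 and -0.75. These are low levels, and with a minimum mean of 50 the list had 2 falls instead of 6. Without wildtype replicate 4 or 6 there were 3. The 2 that rose were the fatty acid binding protein Fabp3 (from 121, 73.6 and 106 to 314, 244 and 249; 1.44, SE 0.18) and the dehydrogenase Acadm (0.47, adjusted p = 0.00646, and adjusted p = 0.15 after thinning).

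Ribosomal protein genes moved together by a small amount: 56 of 61 rose, 0 fell, and the median was 0.35. Rpl41 rose from 2894, 3118 and 2871 to 4375, 4319 and 4321 (0.55, SE 0.05). The number of rises was 22 under quantile normalization and 38 with totals without the abundant genes, with medians of 0.13 and 0.20 and 0 falls in both.

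Genes of the extracellular matrix rose in most cases, 36 of 45 with 1 fall and a median of 0.37. Col4a1, a collagen of basement membranes, rose from 4737, 5162 and 4968 to 7873, 8530 and 8232 (0.73, SE 0.05, adjusted p = 4.84e-05), and Col6a1 from 3664, 3878 and 3825 to 5867, 6272 and 6597 (0.72, SE 0.06, adjusted p = 6.53e-05). Col4a2, Col6a2, Col18a1, Fn1 and the perlecan gene Hspg2 rose by 0.84, 0.80, 0.73, 0.66 and 0.62. Dcn alone fell (-0.20, adjusted p = 0.0283), a call lost when any 1 library was left out and turned to 0.01 after removal of length and GC trends. Under quantile normalization 16 matrix genes rose and 5 fell. The summed endothelial, pericyte and fibroblast markers given above moved the same way between the labels, and their part in the matrix result was not tested. Of 24 cholesterol synthesis genes 9 rose and 0 fell (median 0.30), with Idi1 at 305, 296 and 310 against 443, 439 and 457 (0.55, SE 0.07) and Hmgcs1 at 0.48 (SE 0.06). With totals without the abundant genes 4 rose.

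Interferon-response genes were lower in the knockout libraries in most cases: 28 of 46 fell, 1 rose, and the median was -0.40. Rsad2, the antiviral enzyme viperin, fell from 4665, 4001 and 4527 to 1501, 1561 and 1598, which is 2.82-fold (SE 0.07 on the log2 scale, adjusted p = 6.99e-06). Oasl1 fell from 1302, 1242 and 1305 to 464, 498 and 476 (-1.42, SE 0.06, adjusted p = 6.99e-06), and Mx2 from 423, 309 and 318 to 87.7, 98.0 and 117 (-1.78, SE 0.15, adjusted p = 0.000103). In each the lowest wildtype library lay more than 2 times above the highest knockout library. Mx1, Ifit3b and Cxcl10 fell by 1.74, 1.13 and 1.02, and B2m did not pass (0.01). Eif2ak2, the kinase PKR, was higher (0.31, adjusted p = 0.0386) in a call lost in 9 alternatives, among them leaving out wildtype replicate 4 or 5 or knockout replicate 4 or 5. Virus and genotype label cannot be told apart for these genes either.

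In the unfolded protein and integrated stress responses 22 of 37 genes fell and 4 rose, with a median of -0.35. Chac1, a glutathione-degrading target of ATF4, fell from 234, 224 and 218 to 107, 106 and 105 (-1.08, SE 0.10, adjusted p = 0.000134), Cth by 1.36 and the cystine transporter Slc7a11 by 1.15, while Atf4 itself fell by 0.37. Hspa5, the chaperone BiP, fell from 6451, 6311 and 6356 to 4675, 4621 and 4525 (-0.47, SE 0.04, adjusted p = 0.000182). The 4 rises were Atf5 (0.47), Psat1, Calr and Canx (0.23 to 0.24), and there was 1 rise under quantile normalization and with totals without the abundant genes. Of 20 heat shock genes 2 rose and 7 fell (median -0.19), with Hspa4l at 488, 465 and 494 against 236, 257 and 259 (-0.94, SE 0.08) and Hspb8 at -0.54 (SE 0.08). Without wildtype replicate 4 or 6 there were 4 falls, and with totals without the abundant genes 11. Hsp90ab1 rose by 0.27 and turned to -0.08 under quantile normalization.

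Imprinted and growth factor genes rose in 13 of 28 cases and fell in 2, with a median of 0.31. H19, a maternally expressed non-coding RNA, lay at 12442, 10569 and 13480 in the wildtype and at 28444, 26728 and 28508 in the knockout libraries (log2 fold change 1.20, SE 0.08, adjusted p = 3.6e-05). Its neighbour Igf2, expressed from the other parental copy, rose from 4061, 3811 and 4698 to 7680, 6608 and 6913 (0.76, SE 0.08). Cdkn1c, an imprinted inhibitor of the cell cycle, rose from 373, 343 and 355 to 729, 589 and 660 (0.88, SE 0.09), and Igf1 rose by 0.88. Zim1 fell by 1.24 (SE 0.26, adjusted p = 0.00889, and 0.0851 with all 12 libraries in 1 fit), and Plagl1 fell by 0.52, a call lost in 7 alternatives that include leaving out wildtype replicate 4 or 6 or knockout replicate 5 or 6.

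Of 42 cell cycle genes 16 rose and 5 fell, with a median of 0.33. The rises included the inhibitors Cdkn1a and Cdkn1c and genes known for roles in mitosis, Cdc20 by 1.06, Aurka by 0.98, Cenpf by 0.96, Plk1 by 0.78 and Mki67 by 0.71, and the D-type cyclin Ccnd2, from 978, 975 and 1056 to 1776, 1659 and 1745 (0.78, SE 0.06, adjusted p = 5.26e-05). The falls included genes known for the entry into DNA replication, Mcm6 from 988, 933 and 989 to 552, 489 and 532 (-0.89, SE 0.07, adjusted p = 6.18e-05), Ccne1 from 677, 654 and 616 to 509, 409 and 384 (-0.59, SE 0.10), Ccne2 (-0.73) and Mcm3 (-0.56), and the inhibitor Cdkn1b (-0.25). Without wildtype replicate 6 or knockout replicate 6 there were 3 falls, and with totals without the abundant genes 10. Of 23 tested p53 targets 4 rose and 8 fell (median -0.20): Bbc3, the death gene PUMA, fell from 269, 240 and 300 to 103, 121 and 112 (-1.26, SE 0.12) and Eda2r by 0.75 (SE 0.07), while Cdkn1a and Ccng1 rose by 0.30 each, neither under quantile normalization, where Ccng1 turned to -0.057. These counts moved to 2 rises without wildtype replicate 4 or 6 or knockout replicate 5 or 6, to 1 rise under quantile normalization and with totals without the abundant genes, and to 5 falls without wildtype replicate 4 or 5 or knockout replicate 5 and after thinning.

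Among 34 antioxidant genes 9 rose and 5 fell, with a median of 0.14 that turned to -0.0093 with totals without the abundant genes. Gstm1 rose from 198, 194 and 168 to 429, 398 and 386 (1.11, SE 0.09, adjusted p = 0.000101) and Gpx4, the glutathione peroxidase of membrane lipids, from 1181, 1221 and 1170 to 1854, 1858 and 1860 (0.64, SE 0.05), while the NRF2 gene Nfe2l2 did not pass (-0.10). Srxn1 and Prdx6 fell by 0.41 and 0.35, while 3 genes of the list fell without wildtype replicate 4 or 5 or knockout replicate 5, and 9 with totals without the abundant genes. Of 36 autophagy and lysosome genes 10 rose and 0 fell, near the 22.6% called over all genes, with a median of 0.12. The cathepsins Ctsd and Ctsl rose by 0.47 and 0.40. Under quantile normalization 4 rose and Ctsd did not pass (adjusted p = 0.14), and with totals without the abundant genes 5 rose and 5 fell and the median turned to -0.02. Of 23 immediate early genes 2 rose, Egr1 (from 65.0, 80.7 and 80.7 to 160, 126 and 143; 0.91, SE 0.14) and Fosl1 (0.74), and 3 fell, Zfp36 (-0.75), Atf3 (-0.73) and Ier2 (-0.55), with a median of -0.04. These 5 calls are near the 22.6% called over all genes, and nothing is read from them. There were 5 falls in edgeR and 9 with totals without the abundant genes.

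**Figure D4:**
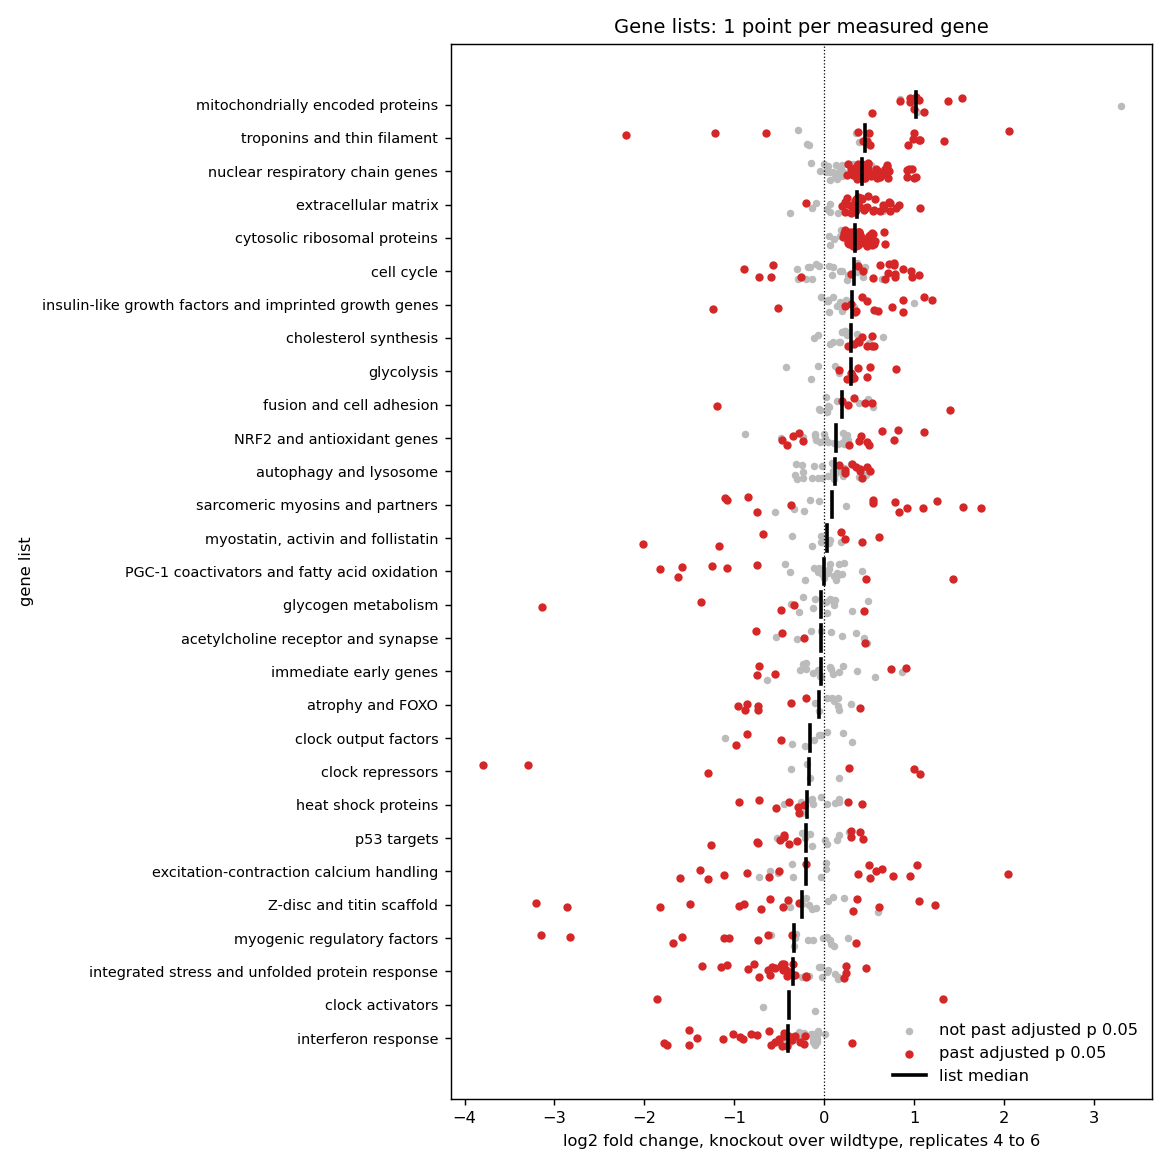
Log2 fold change of knockout over wildtype for each tested gene of 29 gene lists, 1 point a gene, ordered by list median (black bar). Red points passed adjusted p 0.05 and grey points did not. Mitochondrially encoded genes have the highest median (1.02) and interferon-response genes the lowest (-0.40).

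The remaining 6 libraries, replicates 1 to 3 of each label with low hypoxia-gene levels, share no library with this comparison and gave 1181 called genes of 12484 (9.46%). Of 12153 genes tested in both and outside the hypoxia list, 943 were called in both in the same direction and 0 in opposite directions. That is 33.6% of the 2810 calls here and 80.5% of the 1172 calls there. Of the 2810, 2599 (92.5%) had the same sign in the other libraries. Among the 24 leading genes, which were picked without the other libraries, 23 had the same sign there and 20 were called. The log2 fold change there was 2.57 for Tnnc1, 2.77 for Casq1, 1.72 for Mymk, -3.04 for Nr1d1, -3.65 for Nr1d2, -3.15 for Ppp1r3a and -2.33 for Mstn. Across genes, which are not independent replicates, the log2 fold changes of both sets had a Spearman's rho of 0.57 over 12153 genes.

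A test of the difference between the knockout effects of both sets called 1 of 12517 genes (0.00799%), mt-Co2, which is listed at 0 in the 3 other wildtype libraries, while 1064 (8.50%) had an unadjusted p under 0.05 and the median SE of the difference was 0.26 on the log2 scale. The call of mt-Co2 was lost with a pseudocount of 10, under quantile normalization and in edgeR, which called 0 genes each. On the recovered reads DESeq2 called 29. For all other genes the difference missed the threshold, which does not show that their changes were alike. Gcnt1 had the largest gap among the 12 falls: its wildtype level was 125, 104 and 116 here and 37.9, 34.1 and 25.2 in the other wildtype libraries, against 9.75 to 16.9 in all 6 knockout libraries. Its log2 fold change was -3.18 here and -1.12 there (adjusted p = 0.0672), and the difference had an adjusted p of 0.214. Stab1 lay at 101, 172 and 33.6 in the other wildtype and at 46.1, 46.0 and 36.4 in the other knockout libraries, the reverse order to that seen here (difference 2.68, adjusted p = 0.432). The interferon-response list had 28 falls here and 13 there, and the matrix list 36 rises here and 13 there, differences in count that were not tested.

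**Figure D5:**
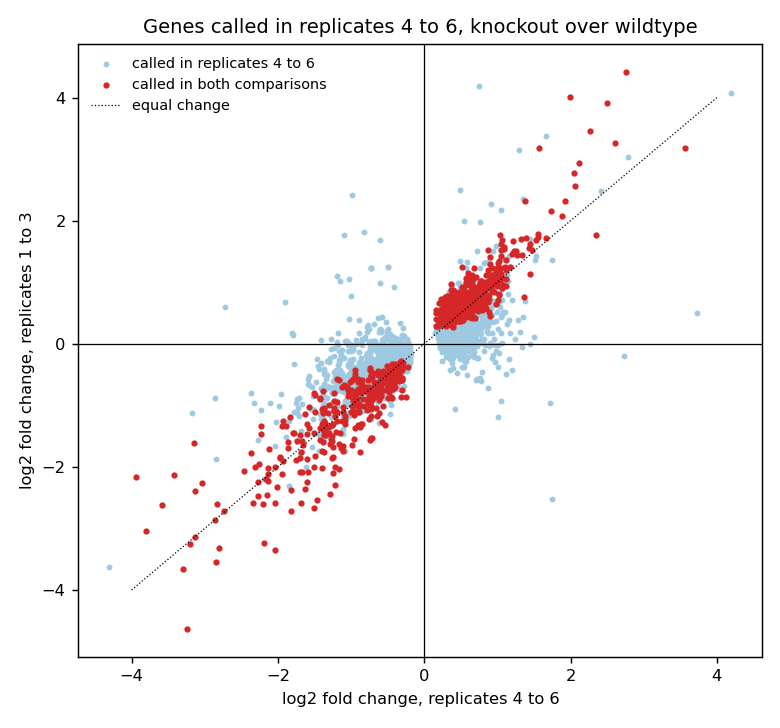
Genes called in replicates 4 to 6, with their log2 fold change there (horizontal axis) and in replicates 1 to 3 (vertical axis), and the line of equal change. Red points were called in both comparisons, and all 943 of these lie in the quadrants of equal sign, while pale points were called here only.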

How the data were processed

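RNA of mouse primary myotubes was sequenced as stranded total RNA, per the labels' protocols. The authors deposited a signal of normalized counts for 20201 genes. Per the submitters' processing notes, Trimmomatic 0.33, STAR 2.5.2 (mm10), RSEM 1.3.3 and DESeq2 were used, and the annotation was not given in the sources used here. Expected counts share reads of near-identical copies by estimate, so such genes are uncertain.

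The deposited values were whole reads divided by 1 factor per library (100% whole within 1e-06). A floor of 3 reads equals 2.12 to 2.19 normalized counts in the 3 wildtype and 5.85, 3.38 and 2.86 in the 3 knockout libraries, for counting error only. GENCODE M21 (GRCm38) named 19970 identifiers (98.9%). No 2 libraries were alike within sampling noise (smallest chi-square per degree of freedom 5.04). The replicate numbers were given in accession order and do not pair samples.

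Groups were compared in limma 3.58.1 (two-sided, trended) after adding a pseudocount of 1 and taking log2. Genes needed a mean of at least 10 (7662 lay below), and p-values were Benjamini-Hochberg adjusted, with a threshold of 0.05. Fold changes are on that scale, which understates low genes. Hypoxia-list members stayed in the fit and in the counts over all genes, but were left out of the list counts and are given without a test. On the recovered reads edgeR 4.0.16 called 2833 genes and DESeq2 1.42.0 called 2176. Other alternatives were pseudocounts, filters, scalings, weights, left-out libraries and, chosen after seeing the data, thinning and removal of length and GC trends. Across 12477 genes, the log2 fold change had a Spearman's rho of 0.24 with transcript GC and of -0.02 with transcript length. The source of the GC trend was not tested. The steps were tested on simulated data. Promoters came from RefSeq (GRCm38.p6). R 4.3.3 and Python 3.11.15 were used.

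The libraries, gene lists and naming rule were chosen with earlier results of these data known. By rule the text names Arntl, the measured clock genes, the 12 called genes that rose most and the 12 that fell most (mean of at least 50, no overlap, without predicted genes or mitochondrial rRNA and tRNA), up to 2 rises and 2 falls with the smallest p per list, and genes called for the difference between both sets. Other list members were named after their values were seen, and a few members are not reported here.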

Additional observations from a re-analysis of the deposited data

Results flagged for a closer look

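mt-Co2, a subunit of cytochrome oxidase encoded by the mitochondrial genome, was the only gene whose knockout effect differed between both sets of libraries in limma. Wildtype replicates 1 to 3 all list it at 0, while the knockout libraries of that set hold 409, 632 and 154 normalized counts. In replicates 4 to 6 it lay at 379, 473 and 121 in the wildtype and at 671, 388 and 488 in the knockout libraries, which overlap. The difference of the log2 changes was -7.58 (SE 0.72, adjusted p = 0.0017), a size set by the pseudocount because 1 group is listed at 0, so that no fold is given. The call was lost with a pseudocount of 10, under quantile normalization and in edgeR, which called 0 genes each. mt-Co3 was nearly absent from 1 library as well, at 0.714 in wildtype replicate 6 beside 1981 and 410 in wildtype replicates 4 and 5.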

How the results depend on the processing

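Pseudocounts, a minimum mean of 50, no filter, upper-quartile and quantile scaling, edgeR, DESeq2, library weights, all 12 libraries in 1 fit, thinning and removal of length and GC trends kept the counts of calls within 1.5 times. With totals without the abundant genes 831 genes were higher and 2274 lower. A threshold of 1.5-fold kept 128 genes, 41 higher and 87 lower, by its construction. Leaving out 1 library gave 1760 to 2588 calls, 1076 to 1404 higher and 684 to 1184 lower. The falls were 684, 832 and 843 without wildtype replicate 4, 5 or 6, with fewer samples in the fit. Arntl ran from -1.93 to -1.81. Of 127 named genes with a test, 50 kept their direction and side of the threshold in every setting in which they were tested. Directions that turned were those of Clock (0.014), Nampt (0.10), Dcn (0.0097) and Tef (-0.043) with length and GC trends removed, Tef with totals without the abundant genes (-0.11) and thinned (-0.049), Usp2 without knockout replicate 5 (0.0037; -0.23 to 0.0037 over single libraries left out) and thinned (0.020), Wee1 under quantile normalization (0.10) and without wildtype replicate 4 (0.0059), knockout replicate 5 (0.0028) or 6 (0.12; -0.23 to 0.12 over single libraries left out), and Fstl1 (-0.17), Hsp90ab1 (-0.079) and Ccng1 (-0.057) under quantile normalization, and the cause was not tested. For replicates 1 to 3, 713 genes were higher and 468 lower. Quantile normalization gave 426 higher there, totals without the abundant genes 466 higher, and library weights 2476 calls (1402 higher, 1074 lower). Leaving out 1 library gave 343 to 2101 calls there, 199 to 1262 higher and 144 to 839 lower, and the highest count was that without wildtype replicate 2. The difference between both sets called 0 genes, 0 lower, with a pseudocount of 10, under quantile normalization and with edgeR, 29 with DESeq2 (15 higher, 14 lower), 3 with library weights (2 higher) and 1 to 4 with 1 library left out (0 to 2 higher, 1 to 2 lower). No paired analysis was possible because the replicate numbers follow accession order and no label pairs the samples. The knockout libraries were the shallower ones, and a gene at 10 normalized counts rested on about 5 reads in knockout replicate 4.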
